A study of Mus musculus with 8 samples.

Results

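The 10 glutathione S-transferase genes described here are Gsta4, Gstm1, Gstm2, Gstm5, Gstp1, Gsto1, Gstt1, Gstt2, Gstk1 and Mgst1, and all 10 were found by Ensembl identifier among the 19244 genes of the count table with a count in any library, and 9 of the 10 had enough counts to be tested. They were measured in muscle stem cells (MuSCs) sorted from aged mice, which were labelled old, and cultured for 72 hours in growth medium with vehicle (1% DMSO) or with 1 mM of the combination of nicotinamide and pyridoxine (NAM/PN). The 8 mice were combined into 4 pools of 2 mice, and each pool was cultured in both conditions, which gave 4 libraries per group. The study's methods state that all its mice were male, and cells were sorted as CD31-, CD11b-, CD45-, Sca1-, CD34+ and integrin α7+. A pool mixed animals and the gate was set before culture, so that the libraries describe averages over 2 mice and over whatever the sorted cells became in 72 hours. No gene was deleted and no transgene was used.

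Glutathione S-transferases join the tripeptide glutathione to reactive, mostly fat-soluble compounds, which makes them more soluble and ready for export. The soluble enzymes are grouped by sequence into classes named alpha, mu, pi, theta and omega, with a separate kappa class in mitochondria and peroxisomes, and membrane-bound enzymes such as MGST1 form an unrelated family. In muscle, as in other oxidative tissue, they act on products of lipid peroxidation, among them the aldehyde 4-hydroxynonenal, for which GSTA4 is the enzyme with the best known preference.

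Several of these genes are near copies of a neighbour, and reads from the 3′ end of a transcript can be assigned to 1 gene only where the copies differ. The last 60 coding bases, stop codon included, are shown for some genes of the alpha, mu and pi classes. Each stretch is from 1 exon of the principal transcript in GENCODE M21 (GRCm38). Capitals mark a base that differs from the first gene shown of its class or has no partner in it. The stretches end between 66 bases (Gstp1 and Gstp2) and 434 bases (Gstm1) before the end of the transcript. Reads can come from sequence after them, so these bases alone do not settle how counts are assigned. Gsta4 is at chr9:78209120-78209179 (+ strand), Gsta1 at chr9:78242519-78242578 (+) and Gsta2 at chr9:78331127-78331186 (- strand).
Gsta4: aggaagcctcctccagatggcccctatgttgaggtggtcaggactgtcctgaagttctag
Gsta1: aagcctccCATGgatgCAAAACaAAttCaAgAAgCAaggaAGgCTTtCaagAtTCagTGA
Gsta2: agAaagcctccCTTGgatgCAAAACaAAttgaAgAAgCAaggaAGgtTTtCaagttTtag

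The stretch of Gsta1 differed from that of Gsta4 at 30 bases and the stretch of Gsta2 at 24. In the mu class, Gstm1 lies at chr3:108012689-108012748 (- strand), Gstm2 at chr3:107982049-107982108 (-) and Gstm5 at chr3:107898490-107898549 (+).
Gstm1: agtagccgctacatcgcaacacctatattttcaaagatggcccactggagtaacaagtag
Gstm2: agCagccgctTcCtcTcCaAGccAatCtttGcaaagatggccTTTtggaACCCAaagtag
Gstm5: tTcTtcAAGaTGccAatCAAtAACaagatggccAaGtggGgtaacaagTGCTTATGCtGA

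Gstm2 differed from Gstm1 at 18 bases and Gstm5 at 28. In the pi class, the stretch of Gstp1 at chr19:4035473-4035532 (- strand) and that of its neighbour Gstp2 at chr19:4040351-4040410 (-) were the same at every base.
Gstp1: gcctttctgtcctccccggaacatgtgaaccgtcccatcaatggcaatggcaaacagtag
Gstp2: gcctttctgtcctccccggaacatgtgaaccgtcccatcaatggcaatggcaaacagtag

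Of the 251 words of 50 bases in the last 300 bases of the Gstp1 transcript, 251 also occurred in transcripts of Gstp2 or of the pseudogene Gstp-ps. Gstt2 shared 5 of its 251 words with other genes, and the other 8 members shared none. Over the whole coding sequence, Gsta4 was closest to Gsta2 with 68.2% identical bases, Gstm1 to Gstm3 with 89.5%, and Gstp1 to Gstp2 with 98.1%. By gene annotation on GRCm38, Gsta4 spans chr9:78182774-78209349 and overlaps no other gene. Gstm5 overlaps 4933431E20Rik and Gsto1 overlaps Cfap43, each on the opposite strand. How the authors' counting treated strand and reads with several matches is not given in the sources used here.

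The 8 libraries held 6472484 to 10163101 counts each, and 12060 genes passed edgeR's filter on low counts. Levels are given as CPM, a gene's share of its library's counts on a fixed scale, with library sizes adjusted by edgeR's TMM factors. A count of 3, used as the detection floor, was worth 0.280 to 0.457 CPM. MuSC and myoblast markers were present in every library, with summed levels of 2909 to 3369 CPM in the vehicle group and 2335 to 2929 CPM with NAM/PN. Myogenic differentiation markers moved with the treatment, since 8 of 10 were called lower and their sum was 1535 to 2985 CPM in the vehicle group and 220 to 637 CPM with NAM/PN. Of the 8 haematopoietic markers, 6 were at 0 in all libraries, and the sums of endothelial markers (3.46 to 21.2 CPM with vehicle, 9.85 to 29.6 CPM with NAM/PN, with Emcn, Cldn5 and Flt1 at 0) and of glial markers (1.61 to 12.4 and 2.83 to 12.6 CPM) were low in both groups. The mural sum was 285 to 608 CPM in the vehicle group and 95.9 to 156 CPM with NAM/PN, with 1 of 7 markers called (lower) and Myh11 at 0. The called marker was Acta2, smooth muscle actin, at 368 ± 125 CPM in the vehicle group and 70.5 ± 35.1 CPM with NAM/PN (log2 fold change -2.38, SE 0.29, edgeR adjusted p = 0.000147), and it made up most of the summed level in the vehicle group. Rgs5, Pdgfrb and Kcnj8 averaged at most 0.909 CPM in either group. The fibro-adipogenic sum was 153 to 207 CPM in the vehicle group and 57.0 to 1123 CPM with NAM/PN, with Pdgfra, Lum and Dpt at 0 and 1 of 7 markers called (lower). That marker was Col3a1, a fibrillar collagen, at 155 ± 7.86 CPM in the vehicle group and 69.2 ± 12.7 CPM with NAM/PN (log2 fold change -1.17, SE 0.19, edgeR adjusted p = 0.00255). Col1a1, another fibrillar collagen, was at 486 CPM in NAM/PN pool 1 and 1032 CPM in NAM/PN pool 2, and did not pass (edgeR adjusted p = 0.071). Vehicle pool 3 and NAM/PN pool 4 lay farther from the other libraries of their group than those did from each other. Chi-square per degree of freedom over genes was 64.4 to 82.2 for pairs with vehicle pool 3, against 23.2 to 28.3 among the other vehicle libraries, and 67.4 to 78.6 for pairs with NAM/PN pool 4, against 22.8 to 25.5. NAM/PN pool 4 held the most counts (10163101) but the fewest genes with a count, 12483 against 12939 to 14472 in the other libraries. The part of these differences in the glutathione S-transferase values was not tested, apart from the values without single libraries that are given below. In bulk RNA, fewer cells of a type and less RNA per cell cannot be told apart.

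The transferase genes were expressed at very different levels in vehicle-treated MuSCs. A 3′ library yields about 1 read per transcript, so CPM were compared between genes without division by length. Gsto1 had the highest mean CPM with vehicle, 147 ± 45.2 (SD, n = 4), followed by Gstm1 at 113 ± 25.4 and Gstm5 at 56.8 ± 12.6. The libraries of Gsto1 and Gstm1 overlapped, whereas those of Gstm1 and Gstm5, and of Gstm5 and Gsta4, did not. Gsta4 was 4th with 21.4 ± 4.95 CPM, and from there down each gene overlapped the next. Gstp1 averaged 13.2 ± 8.00 CPM and Gstm2 8.74 ± 5.30 CPM. Gstk1, Gstt1, Gstt2 and Mgst1 all averaged under 4 CPM, between 2.87 and 3.52 CPM.

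**Figure D1:**
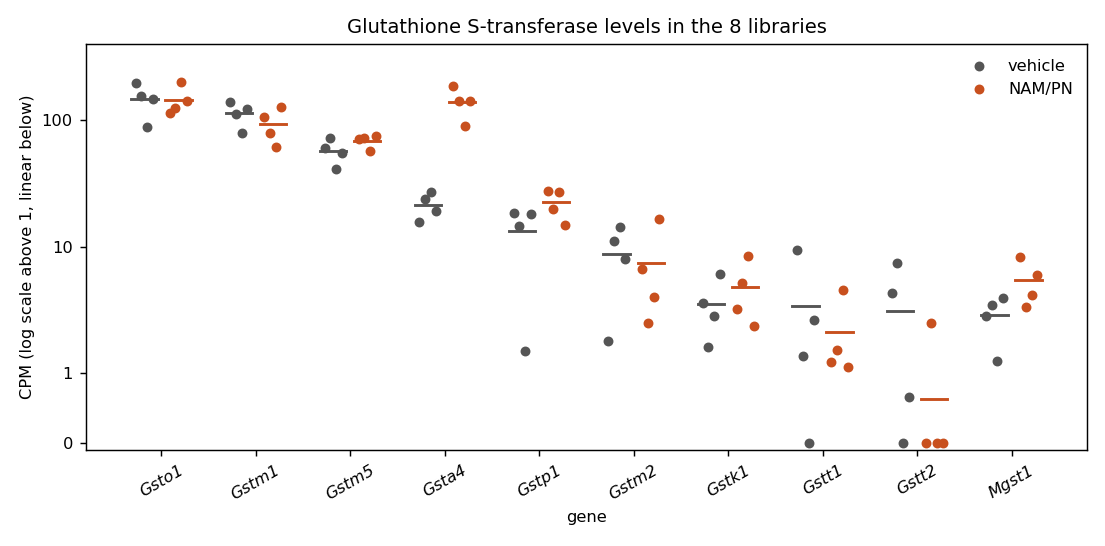
CPM (vertical axis, logarithmic above 1 and linear below) of the 10 glutathione S-transferase genes in the 4 vehicle libraries (grey points) and the 4 NAM/PN libraries (orange points), with a line at each group mean. Gsta4 was at 15.6 to 26.8 CPM in the vehicle group and at 89.8 to 185 CPM with NAM/PN, and the points of the other 9 genes overlapped between groups.

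With NAM/PN the 6 most abundant genes were the same, and Gsta4 moved from 4th to 2nd among them, at 139 ± 38.9 CPM, beside Gsto1 at 145 ± 38.2 CPM and Gstm1 at 93.6 ± 28.9 CPM, and the libraries of Gsto1 and Gsta4, and of Gsta4 and Gstm1, overlapped. Gstm5 averaged 68.7 ± 7.79 CPM and did not overlap Gstp1, at 22.3 ± 6.26 CPM. The remaining 5 genes averaged between 0.627 CPM for Gstt2 and 7.39 CPM for Gstm2.

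The members were chosen with the contrast of NAM/PN and vehicle in these libraries known, so their differences are described with no p. Gsta4, the alpha-class enzyme for 4-hydroxynonenal, was the member that stood apart. Vehicle pools 1 to 4 had 15.6, 23.9, 26.8 and 19.3 CPM, and NAM/PN pools 1 to 4 had 185, 140.4, 89.8 and 142 CPM. The lowest NAM/PN library was 3.35 times the highest vehicle library, both of them from pool 3. All 4 pools were higher with NAM/PN, by 11.8-fold in pool 1, 5.87-fold in pool 2, 3.35-fold in pool 3 and 7.39-fold in pool 4. The fitted log2 fold change was 2.70 (SE 0.26, 95% interval 2.17 to 3.24), which corresponds to 6.51-fold (4.48 to 9.46). Pool 1 had the lowest level with vehicle and the highest with NAM/PN. Counted from the largest rise down, Gsta4 was 33rd of 12060 genes by log2 fold change. Without vehicle pool 3 its log2 fold change was 2.82, and without NAM/PN pool 4 it was 2.69. Col1a1 was at 486, 1032, 3.96 and 3.27 CPM in NAM/PN pools 1 to 4, where Gsta4 was at 185, 140.4, 89.8 and 142 CPM. Any relation between these values was not tested.

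The other alpha-class genes had few counts and were at 0 in most libraries. Gsta1, which with Gsta2 encodes alpha-class enzymes best known from liver and gut, had 0 counts in all 4 vehicle libraries and 58, 0, 62 and 30 counts in NAM/PN pools 1 to 4. Gsta2 had 17 counts in vehicle pool 4 and 16 and 31 counts in NAM/PN pools 2 and 3, with 0 elsewhere. Neither had enough counts to be tested. Gsta3 was at 0 throughout. Counts of the alpha genes summed to 1 row gave a log2 fold change of 2.74 (SE 0.25), with 21.9 ± 4.77 CPM for vehicle and 146 ± 36.1 CPM for NAM/PN, so nearly all alpha-class counts in the table were those of Gsta4. Gsta1 and Gsta2 share 97.5% of their coding bases, so reads that match both may be missing from their counts.

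The mu-class members, cytosolic enzymes with broad substrates that lie within 149.1 kb on chromosome 3, overlapped between groups. Gstm1 had 138, 112, 78.5 and 123 CPM in vehicle pools 1 to 4 and 105, 79.7, 61.5 and 127 CPM in NAM/PN pools 1 to 4, lower with NAM/PN in 3 of 4 pools. Its log2 fold change was -0.27 (SE 0.24, 95% interval -0.77 to 0.23). Gstm5 had 59.7, 71.6, 41.0 and 55.0 CPM in the vehicle group and 70.4, 71.8, 57.4 and 75.2 CPM with NAM/PN. All 4 pools were higher with NAM/PN, by 1.002-fold in pool 2, 1.18-fold in pool 1 and at least 1.37-fold in pools 3 and 4, and the log2 fold change was 0.27 (SE 0.23, 95% interval -0.20 to 0.75). Gstm2 was rare and scattered, with 1.78, 11.0, 14.2 and 7.94 CPM in the vehicle group and 6.65, 2.51, 3.96 and 16.4 CPM with NAM/PN. The fitted difference was -0.24 on the log2 scale with an SE of 0.79, and 2 pools were higher and 2 lower. Over the 19 alternative fits described below, this difference ran from -1.04 to 0.30. Summed over 7 mu-class genes, the log2 fold change was -0.10 (SE 0.20).

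Gstp1, the pi-class enzyme that is abundant in many proliferating cells, had 18.5, 14.6, 1.48 and 18.2 CPM in the vehicle group and 27.7, 19.6, 27.3 and 14.8 CPM with NAM/PN. The log2 fold change was 0.76 (SE 0.55, 95% interval -0.39 to 1.90), and 3 of 4 pools were higher. Vehicle pool 3, with 12 counts, set much of this, since the log2 fold change was 0.38 without it. As shown above, the 3′ end of Gstp1 is shared with Gstp2 and Gstp-ps, so its counts are uncertain. Gstp2 had 0 counts in all 8 libraries. Gstp-ps had 11.6, 15.1, 4.94 and 14.1 CPM in the vehicle group and 4.80, 6.83, 19.8 and 13.4 CPM with NAM/PN. The sum of Gstp1, Gstp2 and Gstp-ps was 24.6 ± 12.2 CPM in the vehicle group and 33.5 ± 9.36 CPM with NAM/PN, with overlapping libraries.

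Gsto1, the omega-class enzyme that reduces glutathionylated thiols and dehydroascorbate rather than acting mainly as a conjugating enzyme, had 197, 156, 87.8 and 146 CPM in the vehicle group and 114, 124, 199.8 and 141 CPM with NAM/PN. The pools went in opposite directions, with pool 3 at 2.28-fold and the other 3 pools at 0.580 to 0.962-fold. The log2 fold change was -0.02 (SE 0.24, 95% interval -0.51 to 0.47). At this depth and spread the interval leaves room for a change to between 0.701 and 1.39 times the vehicle level.

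The theta-class genes, which act on small halogenated compounds, were rare in both groups. Gstt1 had 9.47, 1.36, 0 and 2.61 CPM in the vehicle group and 1.23, 1.53, 4.57 and 1.12 CPM with NAM/PN, and its log2 fold change was -0.67 (SE 1.51). Without vehicle pool 1 its log2 fold change was 0.66, and with all 8 libraries the difference in mean log2 CPM was 0.17 with a prior count of 2 and 0.59 with one of 0.5, so no direction is given for it. Gstt2 had 36, 60, 0 and 6 counts with vehicle and 0, 18, 0 and 0 counts with NAM/PN, too few for the filter, and was not tested. It was at 0 in 4 of 8 libraries, with at least 1 at 0 in each group. Reads of amplified molecules are not independent, and floors cover counting error only.

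Gstk1, of the kappa class, had 3.55, 1.61, 2.84 and 6.09 CPM in the vehicle group and 3.20, 5.16, 8.38 and 2.34 CPM with NAM/PN, with 2 pools higher and 2 lower and a log2 fold change of 0.43 (SE 1.12). Mgst1, the microsomal enzyme that also reduces lipid hydroperoxides, had 2.84, 3.47, 1.24 and 3.92 CPM in the vehicle group and 8.25, 3.34, 4.11 and 5.98 CPM with NAM/PN. Its log2 fold change was 0.92 (SE 1.11, 95% interval -1.40 to 3.23), and 3 of 4 pools were higher. Intervals of these genes spanned several-fold in both directions, so that changes of the size seen in Gsta4 could not be told from none for Mgst1 and Gstk1.

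**Figure D2:**
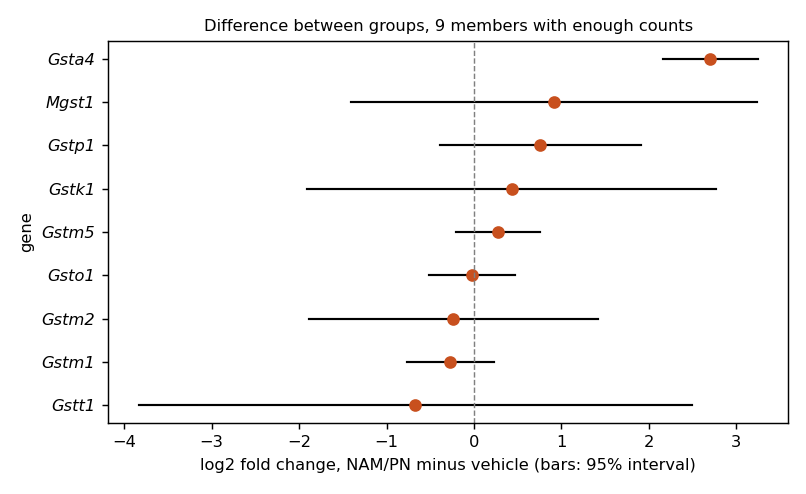
Log2 fold change of NAM/PN over vehicle (horizontal axis) for the 9 members with enough counts, with bars for the 95% interval from edgeR. The interval of Gsta4 ran from 2.17 to 3.24, and those of the other 8 genes included 0.

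Of the 9 members with enough counts, 1 was called, with an adjusted p under 0.05 (Gsta4, higher). Over all 12060 tested genes 1.28% were called, 0.282% higher and 0.995% lower. The libraries did not overlap between groups for 1 of the 9 members, beside 7.21% of all tested genes. Since this contrast was known when the members were chosen, nothing is read from these counts. Log2 fold changes were above 0 for 5 of 9 members, with a median of 0.27, beside a median of -0.0022 over all tested genes.

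Summed over the 10 members, transferase levels were 451, 403, 254 and 383 CPM in vehicle pools 1 to 4 and 522, 451, 457 and 527 CPM in NAM/PN pools 1 to 4. The sum was higher with NAM/PN in each pool, with means of 373 ± 84.4 and 489 ± 40.9 CPM, although NAM/PN pool 2 and vehicle pool 1 were within 1 CPM of each other. Without Gsta4 the sums averaged 352 ± 88.5 CPM in the vehicle group and 350 ± 32.6 CPM with NAM/PN. These means hid pools that went opposite ways, since the sum without Gsta4 went from 436 to 337 CPM in pool 1 and from 379 to 310 CPM in pool 2, but from 227 to 367 CPM in pool 3 and from 364 to 384 CPM in pool 4. Gsta4 made up 3.46%, 5.94%, 10.6% and 5.02% of the summed CPM in vehicle pools 1 to 4 and 35.4%, 31.2%, 19.7% and 27.1% in NAM/PN pools 1 to 4. Gsto1, Gstm1 and Gstm5 together made up 81.7% to 87.6% with vehicle and 55.6% to 69.8% with NAM/PN. Vehicle pool 3 had the lowest CPM of its group for 7 of the 10 members, and the highest for Gsta4 and Gstm2.

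**Figure D3:**
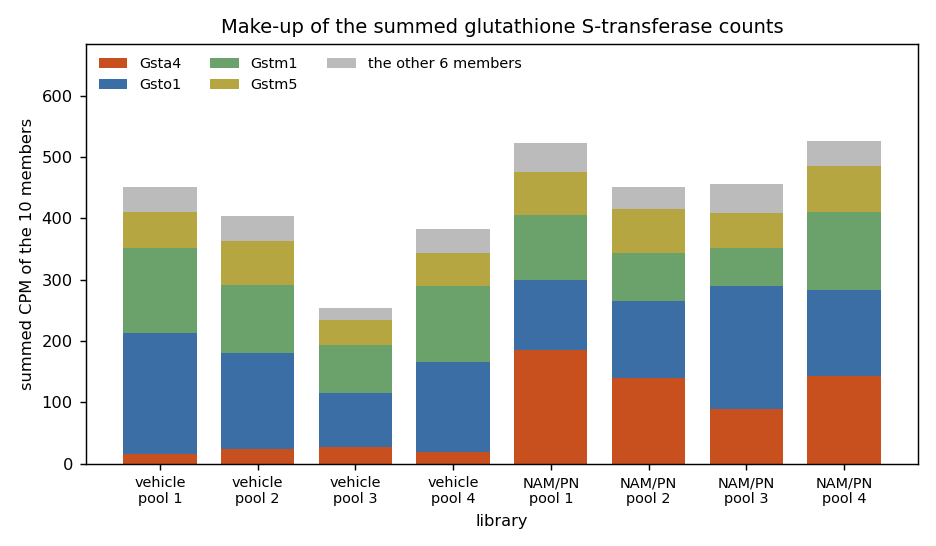
Summed CPM of the 10 members (vertical axis) in each library, split into Gsta4, Gsto1, Gstm1, Gstm5 and the other 6 members. The Gsta4 part was 3.46% to 10.6% of a vehicle bar and 19.7% to 35.4% of a NAM/PN bar, and vehicle pool 3 had the lowest bar at 254 CPM.

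Around the members, 104 further genes were listed by their role with glutathione, aldehydes and the transcription factor NRF2, which drives many of these genes from a site called the antioxidant response element. Of these, 102 matched 1 identifier and 72 passed the filter. Of the 72, 7 were called by edgeR (quasi-likelihood test, Benjamini-Hochberg adjusted p under 0.05 over every tested gene; 4 higher, 3 lower), which is 9.72% beside 1.28% of all tested genes. The median log2 fold change of the 72 was 0.11, and 42 were above 0. The lists were written with earlier results of these data known and are not independent evidence. In the fit with the pool as a replicate block, 4 of the 7 were called (Gpx3, Prdx6, Ptgr1 and Srxn1).

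Among 21 other genes of the transferase family, 7 were tested and 6 were at 0 in all libraries. Ltc4s, which joins glutathione to leukotriene A4, fell, from 67.1, 46.0, 52.9 and 34.8 CPM in vehicle pools 1 to 4 to 15.4, 19.6, 17.5 and 25.8 CPM with NAM/PN. The groups did not overlap, and the log2 fold change was -1.36 (SE 0.30). Its adjusted p was 0.0264 by edgeR, and 0.0658 in the edgeR fit with the replicate block. Gstcd, a gene with a transferase-like domain, was at 23.5 to 39.6 CPM in the vehicle group and 42.8 to 57.7 CPM with NAM/PN. Its groups did not overlap, but its log2 fold change of 0.64 (SE 0.27) had an adjusted p of 0.42 by edgeR and did not pass. The median log2 fold change of the 7 genes was 0.07, and none was called higher.

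Genes for making glutathione showed 1 call. Slc7a11, the cystine carrier that supplies cysteine for glutathione, rose from 11.5, 10.9, 20.1 and 11.0 CPM to 37.3, 70.4, 29.4 and 29.0 CPM. All 4 pools were higher, with a log2 fold change of 1.63 (SE 0.38). Its adjusted p was 0.0327 by edgeR, and 0.0644 in the edgeR fit with the replicate block. Gclm, the modifier subunit of the rate-limiting ligase, was at 132 ± 28.2 CPM in the vehicle group and 211 ± 40.5 CPM with NAM/PN, higher in 4 of 4 pools, but did not pass (log2 fold change 0.68, SE 0.20, edgeR adjusted p = 0.13). Without vehicle pool 3 its adjusted p by edgeR was 0.0349, and by limma with all libraries it was 0.00719. The catalytic subunit Gclc had a log2 fold change of 0.08 (SE 0.25). In this list of 12 tested genes, 8 were above 0 and the median was 0.25.

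Of 16 tested genes for glutathione reduction and peroxidases, Prdx6 rose and Gpx3 fell. Prdx6, a peroxiredoxin that uses glutathione and repairs oxidized membrane lipids, had 407, 355, 333 and 346 CPM in the vehicle group and 631, 550.1, 527 and 909 CPM with NAM/PN. Its log2 fold change was 0.86 (SE 0.18, edgeR adjusted p = 0.0153). Gpx3, a secreted glutathione peroxidase, had 129, 135, 145 and 112 CPM in the vehicle group and 49.0, 59.5, 41.0 and 65.8 CPM with NAM/PN, which gave a log2 fold change of -1.28 (SE 0.21, edgeR adjusted p = 0.00219). In both genes the groups did not overlap. The list as a whole had 9 genes above 0 and a median of 0.18.

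Ptgr1, a reductase of unsaturated aldehydes and ketones that acts on 4-hydroxynonenal as GSTA4 does, rose in the list of 16 tested genes for aldehydes and carbonyls. It had 796, 563, 451 and 680.5 CPM in the vehicle group and 1099.6, 1116, 1224 and 1295 CPM with NAM/PN, and its log2 fold change was 0.93 (SE 0.17, edgeR adjusted p = 0.00559). Aldh3a1, an aldehyde dehydrogenase for medium-chain aldehydes, was at 5.29 ± 4.06 CPM with vehicle and at 11.6, 8.36, 20.4 and 38.3 CPM in NAM/PN pools 1 to 4. All pools were higher, but its groups overlapped and it did not pass (log2 fold change 1.89, SE 0.71, edgeR adjusted p = 0.33). The median of the list was 0.15, with 11 of 16 above 0.

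NRF2 itself (Nfe2l2) had a log2 fold change of 0.09 (SE 0.19) and its inhibitor Keap1 of -0.08 (SE 0.18). Among 12 tested regulators and targets, Srxn1, which restores overoxidized peroxiredoxins, rose from 130.4, 157, 129 and 133 CPM to 256, 230.0, 239 and 239 CPM (log2 fold change 0.81, SE 0.16, edgeR adjusted p = 0.0126). Hmox1, which breaks down heme, fell from 117, 149, 201 and 126 CPM to 98.7, 84.3, 74.5 and 57.9 CPM, with a log2 fold change of -0.91 (SE 0.22). Its adjusted p was 0.0459 by edgeR, and 0.0552 in the edgeR fit with the replicate block. Nqo1, a quinone reductase, was at 6.05 to 40.9 CPM in the vehicle group and 50.3 to 87.0 CPM with NAM/PN, and did not pass (log2 fold change 1.14, SE 0.40, edgeR adjusted p = 0.26). It was named after its values were seen. Srxn1 and Hmox1, both counted as NRF2 targets, thus went opposite ways. The median of the list was 0.05, but the list mixes targets with regulators. The targets Txnrd1 (log2 fold change 0.28, SE 0.17), Txn1 (0.28, SE 0.17) and Osgin1 (0.43, SE 0.59) were above 0, as was Nqo1, and did not pass. Hmox1 was the only target of the list below 0. The regulators Bach1 (-0.34), Maff (-0.51) and Mafg (-0.21) were below 0, Mafk was at 0.02, and none of them passed.

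Exporters and xenobiotic genes had 0 calls by edgeR among 5 and 4 tested genes. Abcc1, which pumps glutathione conjugates out of cells, had a log2 fold change of 0.36 (SE 0.21, edgeR adjusted p = 0.69), and Abcc5 of -0.45 (SE 0.28, edgeR adjusted p = 0.73). Tiparp, a target of the aryl hydrocarbon receptor, had -0.51 (SE 0.41, edgeR adjusted p = 0.83), and the receptor's partner Arnt had -0.43 (SE 0.43, edgeR adjusted p = 0.89). At an unadjusted p under 0.05 neither list held a gene in this fit, and DESeq2 called none of them either. Cyp1a1 and Cyp1b1, the classical targets of that receptor, were at 0 in all 8 libraries.

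**Figure D4:**
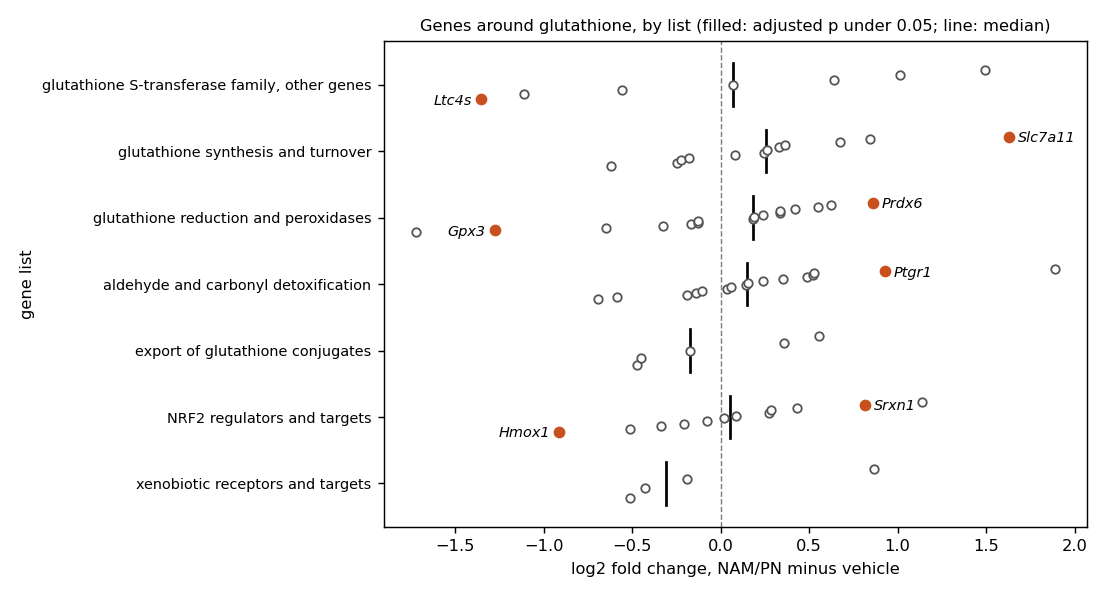
Log2 fold change of NAM/PN over vehicle (horizontal axis) for the 72 tested genes of the 7 lists, with filled points for the 7 genes called by edgeR and a line at each list's median. Slc7a11, Prdx6, Ptgr1 and Srxn1 lie to the right of 0 and Gpx3, Ltc4s and Hmox1 to the left, and the medians lie between -0.31 and 0.25.

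Of the 7 calls, 5 were lost without at least 1 single library. Without NAM/PN pool 1, 2 were called (Gpx3 and Ptgr1), without vehicle pool 2, 3 (Gpx3, Ptgr1 and Srxn1), without vehicle pool 4, 3 (Gpx3, Ltc4s and Ptgr1), and without NAM/PN pool 2, 4 (Gpx3, Prdx6, Ptgr1 and Srxn1). Without vehicle pool 1, Ltc4s and Slc7a11 were lost, without vehicle pool 3, Ltc4s and Hmox1, without NAM/PN pool 3, again Ltc4s and Hmox1, and without NAM/PN pool 4, Hmox1. Over all 19 alternatives Gpx3 and Ptgr1 passed in 18, Prdx6 and Srxn1 in 13, Slc7a11 in 10, Ltc4s in 9 and Hmox1 in 6, with the same direction in every one. Without both libraries of pool 2 no gene of the 72 was called by edgeR, and the adjusted p of Gpx3 was 0.0524.

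**Figure D5:**
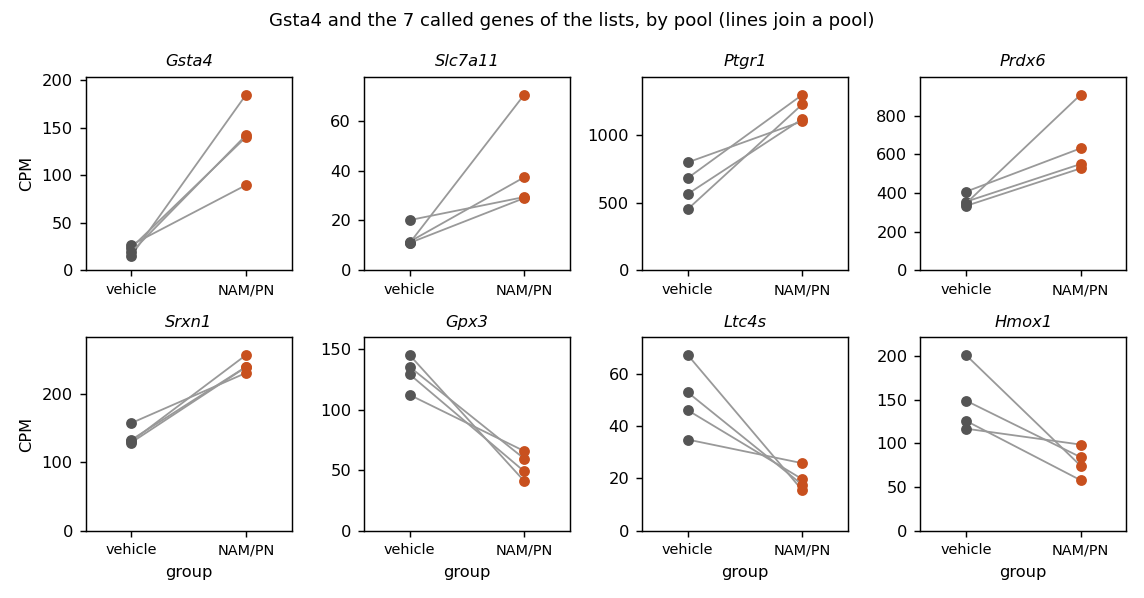
CPM (vertical axes, each from 0) of Gsta4 and of the 7 called genes of the lists with vehicle and with NAM/PN, with a line for each of the 4 pools. All 4 lines go up for Gsta4, Slc7a11, Ptgr1, Prdx6 and Srxn1 and down for Gpx3, Ltc4s and Hmox1.

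The core of the antioxidant response element, TGACNNNGC on either strand, was searched in the promoters that RefSeq gives on GRCm38.p6, each from 250 bases before to 50 bases after a start site. Of all genes with such a window 14% held a match, and of the tested genes 17.1%. Promoters were found for 8 of the 10 members, not for Gsta4 and Gstt2, and 2 of the 8 held a match, Gstm5 and Mgst1. Of the 7 called genes of the lists 5 had a window, and 1 of them, Srxn1, held a match. The matches are shown with 10 bases on each side and the core in capitals, on the strand of the gene, at chr3:107895802-107895830 for Gstm5, chr6:138140461-138140489 for Mgst1 and chr2:152105542-152105570 for Srxn1.
Gstm5: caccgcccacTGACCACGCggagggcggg
Mgst1: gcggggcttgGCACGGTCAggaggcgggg
Srxn1: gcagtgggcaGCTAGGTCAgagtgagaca

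The core started 42 bases before the start site in Gstm5, 56 bases before it in Mgst1 and 28 bases after it in Srxn1. Of these genes Srxn1 was called, and the intervals of Gstm5 and Mgst1 included 0. A match of letters does not show that a factor binds there.

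The genes whose log2 CPM followed Gsta4 most closely over the 8 libraries, among those whose average log2 CPM reached 3 or more, were Hdac7 (Pearson r = 0.98), Srxn1 (0.96), Nptx1 (0.96), Hmga2 (0.96) and Blvrb (0.96). All 8 points share the 2 conditions, and with the condition means removed r was 0.72 for Hdac7, 0.34 for Srxn1, 0.21 for Nptx1, 0.43 for Hmga2 and 0.44 for Blvrb. Blvrb, which reduces biliverdin, was at 29.2 CPM in the vehicle group and 86.4 CPM with NAM/PN on average, and Nptx1, a secreted pentraxin, at 74.8 and 297 CPM. Hdac7, a histone deacetylase, was at 106 and 143 CPM and was not called by edgeR (log2 fold change 0.43, adjusted p = 0.38). These genes were selected for their likeness to Gsta4, so that the correlations are a description.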

How the data were processed

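For the 8 libraries the authors deposited read counts per gene that were not normalized. Per the study's methods, QuantSeq 3′ libraries were demultiplexed with Bcl2FastQ, aligned to GRCm38 with RNASTAR and counted with htseq-count. The annotation release, strand setting and treatment of multiply mapped reads are not given in the sources used here. Because such libraries read the 3′ end, counts were not divided by length, and genes with the same 3′ end cannot be separated.

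Counts were analysed in R 4.3.3 with edgeR 4.0.16, after filterByExpr (minimum count 10, minimum total 15) and TMM normalization, by edgeR's quasi-likelihood test of NAM/PN against vehicle adjusted by Benjamini-Hochberg across the 12060 genes that passed the filter ("called" means an adjusted p under 0.05). The study's methods name this test for whole mouse muscle and no test for the MuSC libraries. Totals of 6472484 to 10163101 counts put 3 counts at 0.280 to 0.457 CPM, and such floors and the intervals cover counting error or the spread between libraries only. Groups follow the treatment label of each library. The same pool number names the same mice in both groups, although deviations from the group means correlated only between -0.033 and 0.031 within a pool. Alternatives were the pool as a replicate block, DESeq2 1.42.0, upper-quartile factors, no filter, limma 3.58.1 (voomWithQualityWeights with duplicateCorrelation), a robust fit, thinning to the smallest library, class sums, a prior count of 0.5, and omission of each library or pool in turn.

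Members, lists and rules were chosen with earlier results of these data known. Named were all members, every called gene of the lists, the 2 genes of each list with the smallest p, and the 5 genes most like Gsta4. Gsta1, Gsta2, Gsta3, Gstm3, Gstp2, Gstp-ps, Gclc, Nqo1, Nfe2l2, Keap1, Cyp1a1, Cyp1b1, Gpx1 and Gpx4 were named after their values were seen. So were Bach1, Maff, Mafg, Mafk, Txnrd1, Txn1, Osgin1 and the genes of the marker lists. Of 104 list entries, Gsta13 had no identifier and Nnt had 2, and both were left out. Positions and transcripts are from GENCODE M21. The fit was tested on simulated data. Coding sequences were aligned with Biopython 1.88 in Python 3.11.15, and matplotlib 3.10.9 drew the figures.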

Additional observations from a re-analysis of the deposited data

Results flagged for a closer look

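In 5 of 48 groups of 4 libraries, 1 library lay far from the other 3 by Dixon's test. The groups were those of the members and of the list genes named for a call or a small p. Chance would give 2.4 for normal, independent values, which does not hold for low counts with ties at 0. Gstt1 was at 4.57 CPM in NAM/PN pool 3, against 1.12 to 1.53 CPM in the other 3 NAM/PN libraries. Gstt2 was at 2.51 CPM in NAM/PN pool 2 and at 0 in the other NAM/PN libraries, a case in which any value above 0 is flagged. Srxn1 was at 157 CPM in vehicle pool 2, against 129 to 133 CPM, and Slc7a11 at 20.1 CPM in vehicle pool 3, against 10.9 to 11.5 CPM. Arnt was at 32.9 CPM in vehicle pool 2, against 20.6 to 22.2 CPM. The values of Srxn1 and Slc7a11 lay on the side of the NAM/PN libraries.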

How the results depend on the processing

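The log2 fold change of Gsta4, which its choice as a member rests on, was 2.41 (without pool 1) to 2.99 (without pool 3) over 19 alternatives, and 2.74 with its class summed. Of the 9 tested members, 5 kept 1 direction in all 19 alternatives, and Gstm2 (-1.04 to 0.30), Gsto1 (-0.40 to 0.25), Gstt1 (-1.78 to 0.84) and Gstk1 (-0.08 to 1.06) did not. Gstm5 was among the 5, at 0.14 to 0.40. The summed counts of the mu class gave -0.10, but that sum is a different quantity from Gstm5. Gstm1 made up 113 of its 187 CPM in the vehicle group on average. Genes called numbered 154, against 156 with the replicate block, 289 with DESeq2, 366 with no filter on low counts and 232 with voom, and 42 to 177 when a library or a pool was left out (65 without pool 1 and 94 without pool 4). Among the genes of the lists 7 were called, against 4 with the replicate block, 9 with no filter and 0 to 6 when a library or a pool was left out, with 0 without pool 2. The replicate block lost Slc7a11, Ltc4s and Hmox1 and changed no other call among the named genes. Over the alternatives the adjusted p by edgeR, DESeq2 or limma ranged from 0.00272 to 0.47 for Slc7a11, 0.00371 to 0.32 for Ltc4s, 0.00191 to 0.30 for Hmox1, 9.47e-05 to 0.14 for Prdx6, 2.52e-05 to 0.17 for Srxn1, 1.80e-06 to 0.14 for Ptgr1 and 2.37e-06 to 0.052 for Gpx3. With no filter Gclm and Nqo1 were also called, and Gclm was called by voom and without vehicle pool 3 too. The fits without a library have fewer samples and test other numbers of genes, and the cause of the other shifts was not tested. Depth limits Gstt1, Gstt2, Gstk1 and Mgst1 most, with at most 80 counts in a library.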

Other observations

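Gpx4, the glutathione peroxidase that acts on lipid hydroperoxides and is used by nearly every cell, was at 1.89 to 3.47 CPM in the vehicle group and at 0 to 2.80 CPM with NAM/PN. The treatment of multiply mapped reads is not given in the sources used here, and whether it lowered the counts of Gpx4 was not tested. Gpx1, another glutathione peroxidase, was at 310 ± 46.2 CPM in the vehicle group and 284 ± 62.3 CPM with NAM/PN.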
